A study of Mus musculus with 16 samples.

Results

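The genes described here are those of the pluripotency network of mouse embryonic stem cells (ESC) and of the pathway of leukemia inhibitory factor (LIF). They were chosen by gene symbol from a list of 37 genes, of which 36 had a probe set on the array, out of 18193 genes that the array names by a single symbol. Tdh was not analysed here. The members were named by 75 probe sets, and 20 genes had several, of which the brightest by its mean over the 16 arrays was read. RNA came from EB5, a mouse ESC line known for carrying a selection gene in an allele of Pou5f1. The NERT cells held a Notch1 intracellular domain that hydroxytamoxifen (OHT) switches on, and the control cells held the empty vector. ESC had spent 4 h in ESCe medium, which contains serum replacement and favors ectoderm, or in ESCm medium, which also contains 1% fetal calf serum (FCS) and favors mesoderm. Mesodermal progenitors had been grown for 4 d on collagen IV in FCS-containing medium.

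OHT was given at 1 µM for 4 h, and cycloheximide (CHX), which blocks protein synthesis, at 50 µg/ml over the same 4 h. NERT ESC in ESCe, NERT ESC in ESCm, control ESC in ESCm and control mesoderm were each measured without and with OHT on a single array. NERT mesoderm was measured with 2 arrays in each of 4 groups, without and with OHT and without and with CHX. The recipes given for these media do not list LIF. Each construct was measured in 1 line, so that the construct and other differences between the lines cannot be told apart. Control cells were not treated with CHX, the control line was not measured in ESCe, and nothing states whether the paired arrays came from separate cultures, so p-values measure the spread between these arrays.

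Mouse ESC self-renew under a set of transcription factors that activate each other, with Pou5f1 (Oct4), Sox2 and Nanog at the core. Around it stand factors of the naive state, such as Esrrb, Tbx3, Klf4 and Tfcp2l1, which decline early when the cells leave self-renewal, while Pou5f1 stays on in the epiblast and for a time in the primitive streak. LIF binds Lifr together with Il6st (gp130), Janus kinases then phosphorylate Stat3, and Stat3 switches on the naive-state factors and its own inhibitor Socs3. Tcf7l1 (Tcf3) represses many of these genes.

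Values are the model-based intensities that the study computed, on a linear scale without a unit. They are compared between arrays for the same probe set and never between genes. Changes are differences of log2(intensity + 25), which understates changes of dim probe sets, and they were tested with limma over all probe sets. A gene was called when its Benjamini-Hochberg adjusted p was under 0.05. The array medians lay between 42 and 46.9, and between 46.2% and 48.7% of the values of an array reached 50. The labels were checked with marker genes and with induction. Of 8 listed mesoderm and primitive streak genes, T (Brachyury) was not analysed here. The summed intensity of the other 7, called streak markers below, was 574 to 773 in ESC. It was 1490 to 4060 in mesoderm without CHX and 992 to 1382 with CHX. Mixl1, Eomes, Fgf8 and Evx1 were higher on all mesoderm arrays without CHX than on any ESC array, and Fgf8 and Evx1 were under 50 in ESC. Kdr, Mesp1 and Pdgfra overlapped between these populations. Kdr measured 129.9 to 234 in ESC and 106 to 277 in mesoderm without CHX. Mesp1 measured 201 to 255 and 227 to 332, and Pdgfra 24.6 to 156 and 26.4 to 155. The Notch target Hes5 went with OHT from 31.6 to 632 in NERT ESCe and from 25.1 and 23.2 to 1609 and 1348 in NERT mesoderm, and was 13.9 and 16.6 in control ESC. Of other cell types, trophectoderm markers Cdx2, Elf5 and Gata3 were under 50 on all ESC arrays. The summed endoderm markers reached at most 805 in ESC and 325 in mesoderm without CHX. Of these, Gata6, Sox17 and Sox7 were higher on both control ESC arrays than on any NERT ESC array.

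**Figure D1:**
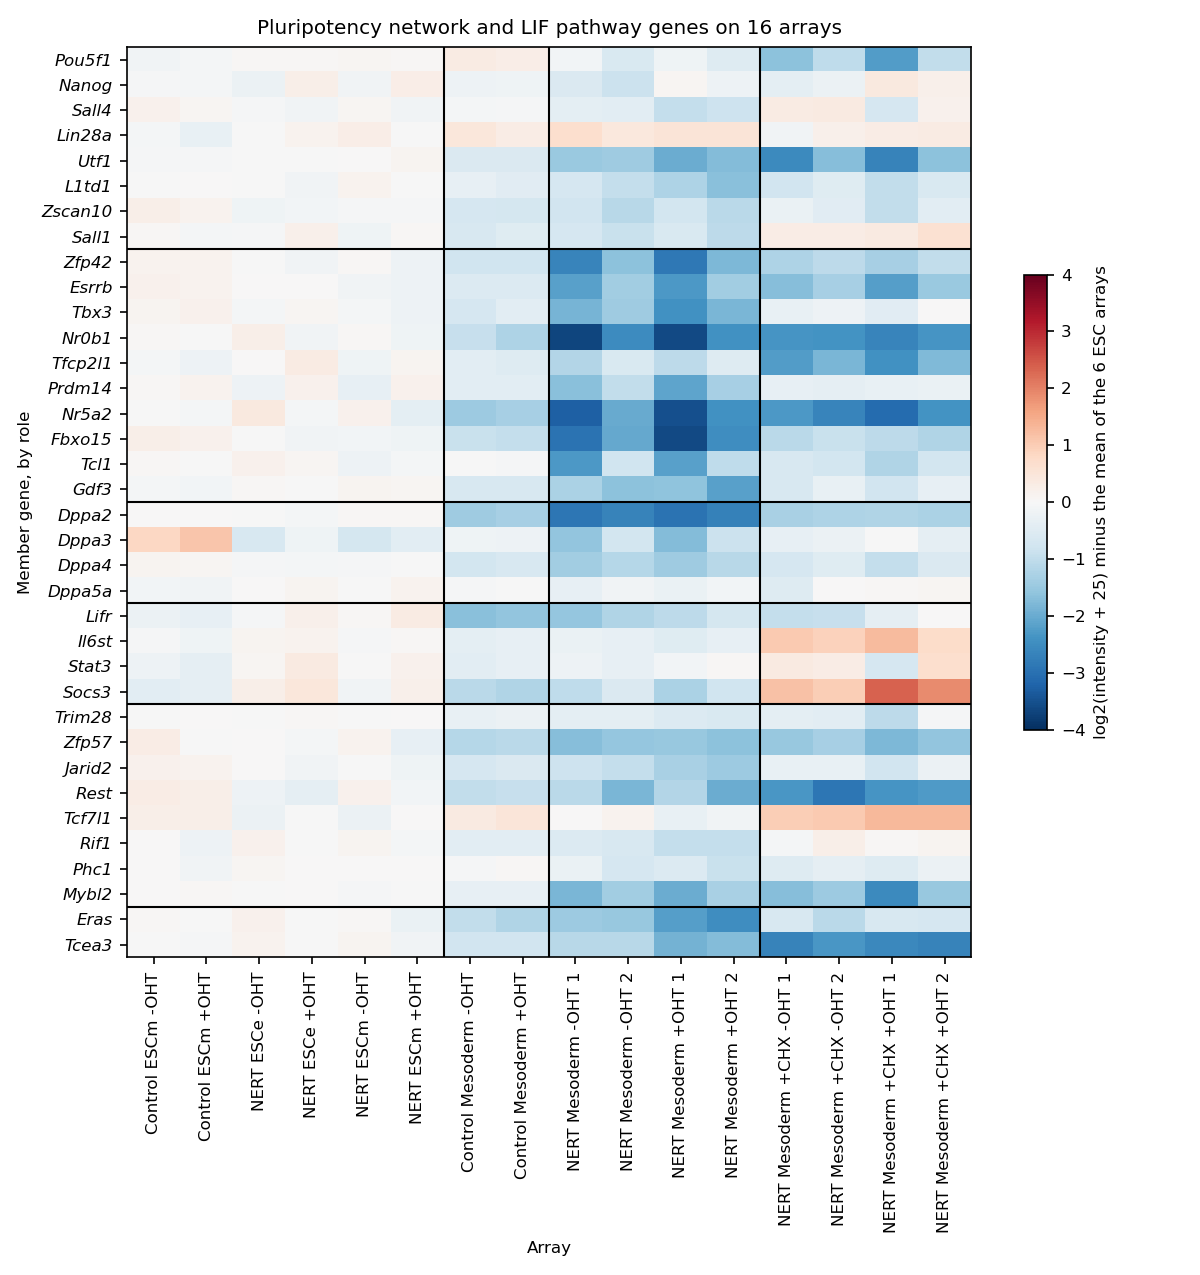
Each row is a member gene, ordered by role, and each column is an array; color gives log2(intensity + 25) minus the gene's mean over the 6 ESC arrays, blue for lower and red for higher. Most rows are blue in NERT mesoderm, with Nr0b1, Nr5a2, Fbxo15 and Dppa2 the deepest, and Socs3, Il6st and Tcf7l1 are red on the 4 CHX arrays.

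The first question was how far the pluripotency genes had gone down in the mesodermal progenitors of each line. In the control line 16 of 36 members were lower in mesoderm than in ESC and 1 was higher, where 8.16% of all 25847 probe sets tested were lower and 12.8% were higher. In the NERT line without OHT, 27 members were lower and 2 higher, where 13.4% of all probe sets were lower and 23.9% higher. The median change of the members was -0.55 in the control line and -0.97 in the NERT line, beside medians over all probe sets of 0.03 and 0.06. The 2 comparisons share no array, but a single fit gave both, with a common spread per gene taken from all 16 arrays. The calls in the lines are thus not independent. In both, 15 genes fell: Tbx3, Dppa2, Dppa4, Nr0b1, Fbxo15, Sall1, Zfp57, Nr5a2, Lifr, Socs3, Tcea3, Jarid2, Zscan10, Eras and Rest. How many of all probe sets fell in both was not counted. Lin28a rose in both. In bulk RNA, fewer cells of a type and less RNA per cell cannot be told apart.

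The normalization bears on these counts. With quantile normalization the share of higher genes among all calls moved from 61% to 51.8% in the control line and from 64.1% to 49.6% in the NERT line. The members then gave 18 lower and 1 higher in the control line, and 28 lower and 0 higher in the NERT line. In the NERT line this shifted the median over all probe sets from 0.06 to -0.04.

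Of the 8 core factors 2 fell and 1 rose in the control line and 5 fell and 1 rose in the NERT line, with median changes of -0.29 and -0.61. Pou5f1, the POU-domain factor without which ESC lose pluripotency, measured 2490 to 2954 over the 6 ESC arrays with a median of 2857. It measured 3449 and 3303 in control mesoderm and 2576 and 1814 in NERT mesoderm without OHT, with 2460 and 1945 in NERT mesoderm with OHT. Both control mesoderm arrays lay above every ESC array, and 3 of the 4 NERT mesoderm arrays lay below. Neither change was called, at 0.40 in the control line (95% interval -0.31 to 1.10) and -0.43 in the NERT line (-1.13 to 0.28).

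Nanog, a homeodomain factor that keeps ESC self-renewing, measured 1909 to 2715 in ESC with a median of 2164. It was 1980 and 1987 in control mesoderm, and 1491 and 1247 in NERT mesoderm without OHT. The control mesoderm arrays lay within the ESC range and the uninduced NERT mesoderm arrays below it. The change was -0.53 in the NERT line (SE 0.13, limma adjusted p = 0.00759) and was not called in the control line, at -0.12 (95% interval -0.41 to 0.17). Of the other core genes, Utf1, a chromatin-bound factor of ESC, fell by 1.46 on the log2 scale in the NERT line, and L1td1, an RNA-binding protein of ESC, fell by 0.87. The zinc finger factors Sall1 and Zscan10 fell in both lines, Sall1 by 0.55 and 0.69 and Zscan10 by 0.87 and 0.82 in the control and NERT line. Sall4, a zinc finger partner of Pou5f1 and Nanog, had changes of -0.18 and -0.42 and was not called in either. It measured 2365 to 2971 in ESC, 2490 and 2538 in control mesoderm, and 1993, 1946, 1342 and 1452 in NERT mesoderm without CHX. The NERT mesoderm arrays thus lay below all ESC arrays. The spread in this fit includes the arrays with CHX and OHT, where Sall4 was 1635 and 2970.

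Lin28a, which binds RNA and blocks processing of let-7 microRNAs, was the only member that rose in both lines. It measured 1374 to 2013 in ESC, 2311 and 2064 in control mesoderm, and 2664, 2278, 2393 and 2397 in NERT mesoderm without CHX. All 6 mesoderm arrays lay above all ESC arrays. The change was 0.55 in the control line (SE 0.15, limma adjusted p = 0.0179) and 0.43 in the NERT line (SE 0.15, limma adjusted p = 0.0337), and the call in the NERT line was absent with quantile normalization.

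All 10 genes listed here as naive-state factors fell in the NERT line, with a median change of -1.64. In the control line 4 of 10 fell, with a median of -0.70. The list was made with earlier results of these data known. Zfp42 (Rex1), a zinc finger protein used as a marker of undifferentiated ESC, measured 4337 to 5554 in ESC with a median of 5077. It was 2848 and 2859 in control mesoderm, 781 and 1589 in NERT mesoderm without OHT and 659.8 and 1406 with OHT. ESC, control mesoderm and NERT mesoderm did not overlap. The change was -2.16 in the NERT line (SE 0.32, limma adjusted p = 0.000204), and at -0.95 (limma adjusted p = 0.0536) it was not called in the control line.

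The promoter of Zfp42 is shown because it was the only member promoter that held the octamer, the sequence that Pou5f1 binds. The run gives the 200 bases before the transcription start in RefSeq, mouse build GRCm38.p6, chr8:43307010-43307209, minus strand, 5′ to 3′, with the octamer in capitals.
Zfp42: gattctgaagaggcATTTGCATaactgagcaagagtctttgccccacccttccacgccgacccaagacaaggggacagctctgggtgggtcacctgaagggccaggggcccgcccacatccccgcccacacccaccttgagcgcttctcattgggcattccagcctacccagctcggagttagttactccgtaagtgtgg

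The match lay at bases -186 to -179 from the start. ATGCAAAT was searched on both strands in the 250 bases before each start. It was found in 1.6% of 32851 RefSeq promoters and in 1 of the 35 promoters that belong to 25 members. A match describes the letters and is not a measured binding site.

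Esrrb, an orphan nuclear receptor, measured 831 to 1087 in ESC with a median of 974, 650.2 and 649 in control mesoderm, and 193, 356, 177 and 349.9 in NERT mesoderm without CHX. The 3 groups did not overlap. It fell by 1.72 in the NERT line (SE 0.31, limma adjusted p = 0.000962) and was not called in the control line, at -0.70 (limma adjusted p = 0.139). Tbx3, a T-box factor, measured 483 to 637 in ESC with a median of 571, 345 and 415 in control mesoderm, and 137, 196, 86 and 139.9 in NERT mesoderm without CHX. Again the 3 groups did not overlap. Tbx3 fell in both lines, by 0.69 (SE 0.22, limma adjusted p = 0.0408) and by 1.57 (SE 0.22, limma adjusted p = 0.000123).

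Nr0b1 (Dax1), a nuclear receptor that lacks a DNA-binding domain, had the largest change of all members. It measured 505 to 670.0 in ESC with a median of 578, 287 and 229.6 in control mesoderm, and 22, 80.1, 23.5 and 86.5 in NERT mesoderm without CHX. The lowest NERT mesoderm values are close to the added 25, so the change is understated there. It fell by 1.10 in the control line (SE 0.36, limma adjusted p = 0.0499) and by 3.22 in the NERT line (SE 0.36, limma adjusted p = 2.44e-05).

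Nr5a2 (Lrh1), a nuclear receptor that can act on the Pou5f1 promoter, measured 886 to 1566 in ESC with a median of 1137, 416 and 459 in control mesoderm, and 98.9, 269.8, 81.1 and 199.6 in NERT mesoderm without CHX. It fell by 1.33 (SE 0.39, limma adjusted p = 0.0284) and 2.95 (SE 0.39, limma adjusted p = 8.18e-05). Fbxo15, an F-box protein gene used as a reporter of reprogramming, measured 2579 to 3443 in ESC with a median of 2779, 1561 and 1491 in control mesoderm, and 351, 676, 212 and 493 in NERT mesoderm without CHX. For both genes ESC, control mesoderm and NERT mesoderm were separate. Fbxo15 fell by 1.13 (SE 0.31, limma adjusted p = 0.0226) and 2.45 (SE 0.31, limma adjusted p = 6.69e-05).

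Prdm14, a repressor of differentiation genes in ESC and germ cells, measured 106 to 162 in ESC with a median of 150.0, 98 and 97.1 in control mesoderm, and 26.3, 58.6, 13.2 and 41 in NERT mesoderm without CHX. It fell by 1.06 in the NERT line (SE 0.24, limma adjusted p = 0.00454) and had a change of -0.51 in the control line that was not called. Tfcp2l1, a grainyhead-like factor downstream of Stat3, measured 523 to 768 in ESC with a median of 585, 438 and 413 in control mesoderm, and 251, 384, 275 and 408 in NERT mesoderm without CHX. All mesoderm arrays lay below all ESC arrays, and the change was -0.81 in the NERT line (SE 0.25, limma adjusted p = 0.0232) and -0.33, not called, in the control line. Tcl1, an Akt cofactor, and Gdf3, a TGF-beta family ligand, each fell by 1.52 in the NERT line and were not called in the control line. For Tcl1 control mesoderm was within the ESC range, at 396 and 389.6 beside 345 to 463, and NERT mesoderm at 63, 224, 70.1 and 189 was below it.

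The 2 arrays of a NERT mesoderm group were not alike in these genes. In 9 of 10 naive-state genes and all 4 Dppa genes, replicate 1 was lower than replicate 2 both without and with OHT, while in 5 of 8 core genes, Pou5f1 and Nanog among them, replicate 1 was higher in both. The part of this spread in the differences between the lines was not tested.

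The Dppa genes are named for their expression in pluripotent cells. Dppa2, which with Dppa4 binds chromatin at promoters of early embryonic genes, measured 3976 to 4364 in ESC with a median of 4210, 1566 and 1659 in control mesoderm, and 539.7, 643, 524 and 619 in NERT mesoderm without CHX. The groups were far apart and each was narrow. Dppa2 fell by 1.37 in the control line (SE 0.12, limma adjusted p = 1.36e-05) and fell by 2.79 in the NERT line (SE 0.12, limma adjusted p = 2.61e-08), and its other probe set was called in the same direction in both. Dppa4 fell by 0.78 and 1.21 in the same comparisons.

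Dppa3 (Stella), a maternal factor that guards DNA methylation, differed among ESC. It measured 301 and 372 in control ESC, 93.5, 139, 89.1 and 113 in NERT ESC, and 139 and 134 in control mesoderm, with 36.4, 87, 29.9 and 75.8 in NERT mesoderm without CHX. It fell by 1.16 in the control line (SE 0.29, limma adjusted p = 0.0134) and the change of -0.49 in the NERT line was not called. Dppa5a, an RNA-binding protein, was 10163 to 12135 in ESC and 8877 to 10956 in mesoderm without CHX, with changes of 0.09 and -0.22 that were not called.

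Of the LIF pathway, the receptor and the feedback inhibitor fell in both lines, and the shared signaling chain and the transcription factor were not called. Lifr, the LIF-binding receptor chain, measured 1212 to 1925 in ESC with a median of 1517, 458 and 494 in control mesoderm, 504 and 645 in NERT mesoderm without OHT and 722 and 918 with OHT. All mesoderm arrays lay below all ESC arrays. Lifr fell by 1.35 in the control line (SE 0.17, limma adjusted p = 0.000144) and by 1.37 in the NERT line (SE 0.17, limma adjusted p = 5.05e-05).

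Il6st (gp130), the chain that LIF shares with interleukin-6 and related cytokines, measured 673 to 856 in ESC with a median of 767, 574 and 609 in control mesoderm, and 632, 612, 547 and 613 in NERT mesoderm without CHX. All 6 mesoderm arrays were below the ESC range, but the changes of -0.24 (95% interval -0.60 to 0.11) and -0.32 (-0.67 to 0.04) were not called. With quantile normalization Il6st was called in the NERT line, at -0.50 (limma adjusted p = 0.0394). Stat3 measured 357 to 604 in ESC with a median of 481, 344 and 372 in control mesoderm, and 401, 364, 431 and 487 in NERT mesoderm without CHX. ESC and mesoderm overlapped, and the changes were -0.07 (95% interval -0.73 to 0.59) and -0.31 (-0.97 to 0.35). The spread in this fit includes the arrays with CHX and OHT, where Stat3 was 285 and 769 and Il6st 1872 and 1284. Arrays read the RNA of Stat3 and not its phosphorylation.

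Socs3, which Stat3 induces and which binds Il6st and the Janus kinases to end the signal, measured 653 to 1231 in ESC with a median of 913, 403 and 368 in control mesoderm, 422 and 585 in NERT mesoderm without OHT and 355 and 497 with OHT. All mesoderm arrays without CHX lay below all ESC arrays. It fell by 0.76 in the control line (SE 0.20, limma adjusted p = 0.0189) and by 0.86 in the NERT line (SE 0.20, limma adjusted p = 0.00519), and both its other probe sets had the same direction.

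Promoters of Socs3 and Zscan10 are shown because they hold TTCNNNGAA, the palindrome that STAT factors bind. They were picked from the members with it because under CHX Socs3 was called and Zscan10 was not. Each run gives the 200 bases before the start in RefSeq, build GRCm38.p6, 5′ to 3′, with the palindrome in capitals, for Socs3 at chr11:117969367-117969566 on the minus strand and for Zscan10 at chr17:23600626-23600825 on the plus strand.
Socs3: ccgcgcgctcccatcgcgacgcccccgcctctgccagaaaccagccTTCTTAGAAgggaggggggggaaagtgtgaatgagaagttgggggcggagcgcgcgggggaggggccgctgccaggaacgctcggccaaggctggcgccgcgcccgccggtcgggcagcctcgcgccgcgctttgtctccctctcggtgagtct
Zscan10: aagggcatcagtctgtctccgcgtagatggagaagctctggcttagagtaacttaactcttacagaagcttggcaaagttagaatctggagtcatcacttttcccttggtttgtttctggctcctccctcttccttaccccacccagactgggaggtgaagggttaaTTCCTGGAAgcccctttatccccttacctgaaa

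The matches lay at bases -154 to -146 in Socs3 and -33 to -25 in Zscan10. The palindrome was in 7.02% of all RefSeq promoters and in 5 of the 35 member promoters, those of Esrrb, Lin28a, Socs3, Phc1 and Zscan10. TGGGAA is the core of the motif of RBP-J, the DNA-binding partner of Notch. It was in 21.6% of all promoters and in 6 of the 35 member promoters, those of Pou5f1, Nanog, Lin28a, Tcf7l1, Jarid2 and Phc1. Both were searched on both strands, and a TGGGAA match can lie over part of a palindrome match.

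The chromatin and repressor genes were mixed. Zfp57, which keeps imprinted regions methylated, measured 187 to 299 in ESC with a median of 240.0, 95.9 and 101 in control mesoderm, and 56.9, 65.4, 67 and 60.6 in NERT mesoderm without CHX. It fell by 1.24 (SE 0.15, limma adjusted p = 0.000131) and 1.70 (SE 0.15, limma adjusted p = 4.17e-06). Rest, a repressor of neuronal genes, measured 1480 to 2328 in ESC with a median of 1942, 943 and 992 in control mesoderm, and 888, 518, 839 and 463 in NERT mesoderm without CHX. For both genes all mesoderm arrays lay below all ESC arrays. Rest fell by 1.22 (SE 0.28, limma adjusted p = 0.00795) and 1.44 (SE 0.28, limma adjusted p = 0.0014).

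Mybl2 (B-Myb), an activator of cell cycle genes, measured 2169 to 2299 in ESC with a median of 2224, 1759 and 1773 in control mesoderm, and 604, 831, 543 and 890.5 in NERT mesoderm without CHX. The ESC range was narrow and the NERT mesoderm arrays lay far below it, with a fall of 1.59 (SE 0.29, limma adjusted p = 0.000973), while -0.36 in the control line was not called. Jarid2, which guides the Polycomb complex PRC2, fell in both lines, by 0.79 and 0.89. Rif1, which controls replication timing, and the Polycomb protein Phc1 fell in the NERT line, by 0.71 and 0.52. Trim28, the corepressor that works with Zfp57, had changes of -0.26 and -0.37 that were not called. All mesoderm arrays without CHX, at 5432 to 7013, lay below all ESC arrays, at 8072 to 8464. The spread in this fit includes the arrays with CHX and OHT, where Trim28 was 3938 and 7898.

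Tcf7l1 measured 1204 to 1694 in ESC with a median of 1409, 1829 and 2014 in control mesoderm, and 1448, 1579, 1149 and 1290 in NERT mesoderm without CHX. Control mesoderm was above every ESC array, and NERT mesoderm overlapped ESC. The rise of 0.31 in the NERT line (SE 0.11, limma adjusted p = 0.043) was absent with quantile normalization, and the gene's other probe set gave -0.12. Eras, a Ras protein that supports growth of ESC, measured 1099 to 1490 in ESC with a median of 1342, 648 and 563 in control mesoderm, and 461, 448, 265 and 217 in NERT mesoderm without CHX. It fell by 1.12 (SE 0.16, limma adjusted p = 0.000317) and 1.60 (SE 0.16, limma adjusted p = 7.61e-06). Tcea3, an elongation factor, measured 683 to 839 in ESC with a median of 743, 434 and 439 in control mesoderm, and 342, 340.2, 185 and 212 in NERT mesoderm without CHX. For Eras and Tcea3 all mesoderm arrays were below all ESC arrays, and Tcea3 fell by 0.73 (SE 0.14, limma adjusted p = 0.00306) and 1.22 (SE 0.14, limma adjusted p = 3.14e-05).

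**Figure D2:**
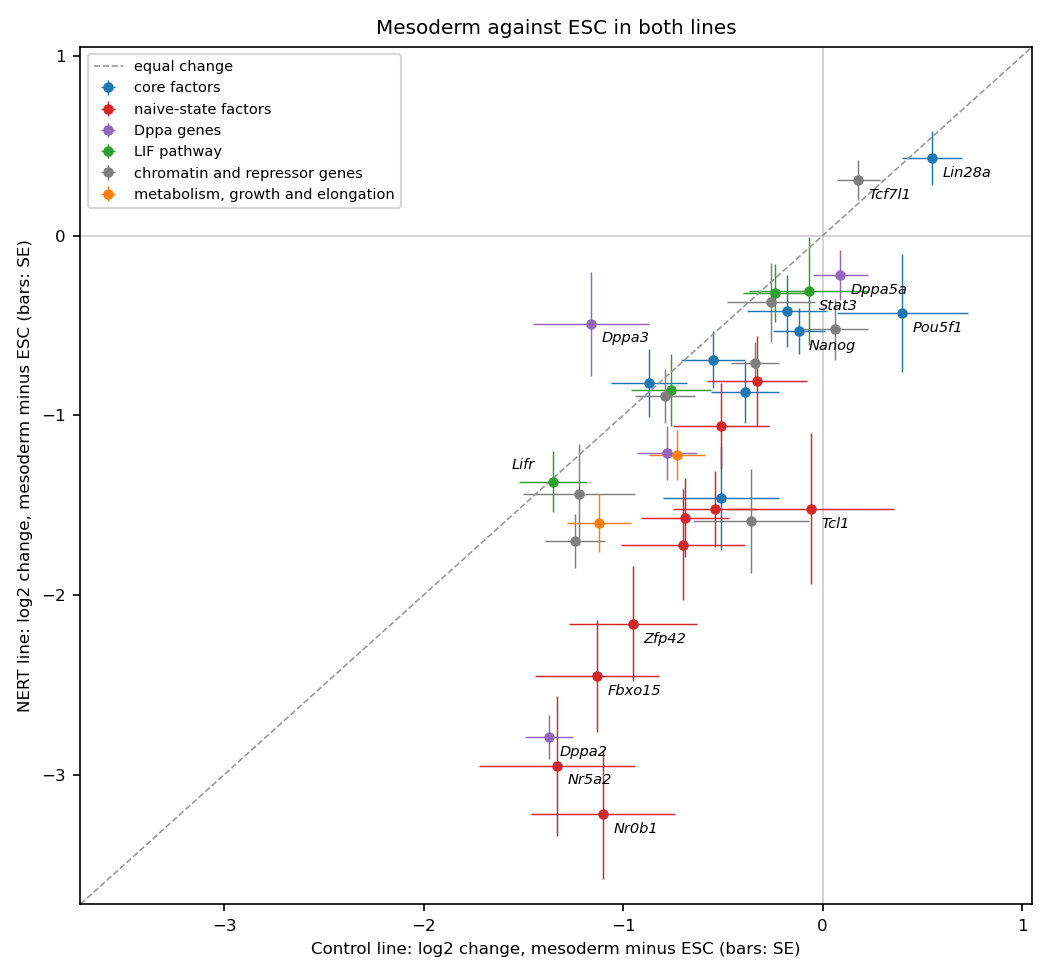
Each point is a member gene, with its log2 change from ESC to mesoderm in the control line on the x axis and in the uninduced NERT line on the y axis, bars giving the standard error and color the role. Most points lie below the dashed line of equal change, Dppa2 at -1.37 and -2.79, while Lifr at -1.35 and -1.37 lies close to it.

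These calls rest on few arrays. Of 17 calls in the control line, 4 were kept when each array in turn was left out (Dppa2, Zfp57, Lifr and Eras), and the count was 4 without the uninduced control ESC or control mesoderm array and 5 without either of their OHT-treated counterparts. In the NERT line 19 of 29 were kept, and the count was 19 without the uninduced NERT ESCe array.

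The next comparison asked whether the NERT line, without OHT, had gone further than the control line. In the test of the difference between the 2 changes, 1 member passed, Dppa2, with a difference of -1.42 (SE 0.18, limma adjusted p = 0.00201), where 1.59% of all probe sets were called in either direction. Of the 36 members 33 had a difference below 0, with a median of -0.47 beside 0.05 over all probe sets, and 14 had an unadjusted p under 0.05. Of all 25847 probe sets 11329 were below 0, and 3747 had an unadjusted p under 0.05. All 10 naive-state genes were below 0, with a median of -1.11 and 8 unadjusted p-values under 0.05, and the largest was Nr0b1 at -2.12 (limma adjusted p = 0.0642). The 4 LIF pathway genes had a median difference of -0.09. Markers of other cell types were called in the same test, 4 of 5 endoderm markers (Gata6, Sox17, Sox7 and Foxa2, median of the list 1.65) and 3 of 7 streak markers (median 1.39), all above 0, and their part in the result was not tested.

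Set directly against control mesoderm, uninduced NERT mesoderm was lower in 6 members and higher in 0, where 1.49% of all probe sets were lower and 4.42% higher. They were Nr0b1 (-2.08, SE 0.41, limma adjusted p = 0.0109), Fbxo15 (-1.63, SE 0.35, limma adjusted p = 0.0178), Dppa2 (-1.39, SE 0.14, limma adjusted p = 0.000166), Zfp42 (-1.33, SE 0.36, limma adjusted p = 0.0486), Mybl2 (-1.28, SE 0.33, limma adjusted p = 0.0396) and Tbx3 (-1.02, SE 0.24, limma adjusted p = 0.0293). The 4 LIF pathway genes lay between 0.06 and 0.33 and were not called. With quantile normalization 11 members were lower and 0 higher, and the share of higher genes among all calls moved from 74.8% to 60.1%. The count went to 0 without the uninduced control mesoderm array, where Dppa2 had a limma adjusted p of 0.067, to 1 without replicate 1 of uninduced NERT mesoderm, to 2 without any other control array and to 3 without any NERT ESC array. It rose to between 10 and 13 without replicate 2 of uninduced NERT mesoderm or without any array of OHT-treated NERT mesoderm. The streak markers moved beside these genes, with 5 of 7 higher in NERT mesoderm, and their part in the result was not tested.

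Before differentiation no member was called between the lines, but endoderm markers were. In ESCm medium 0 of 36 were called between NERT and control ESC, where 0.255% of all probe sets were, and 2 had an unadjusted p under 0.05. The 0.255% is of adjusted calls and cannot be set beside these 2. Dppa3 was the farthest at -1.65 (SE 0.35, limma adjusted p = 0.117), with control ESC at 301 and 372 and NERT ESCm at 89.1 and 113. Tcf7l1 had -0.43 (limma adjusted p = 0.402). In the same comparison 3 of 5 endoderm markers were lower in NERT ESC, with a median of the list of -1.44. Gata6 measured 249 and 250.3 in control ESC and 80 and 80 in NERT ESCm, Sox17 271 and 295 beside 66.2 and 67.4, and Sox7 141 and 145 beside 26.8 and 21.2. Dppa3 was higher on the same control ESC arrays, and the part of the endoderm markers in the differences between the lines was not tested. Between ESCe and ESCm media in the NERT line 0 members and 0% of all probe sets were called, 0 members had an unadjusted p under 0.05, and the changes lay between -0.30 and 0.32.

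**Figure D3:**
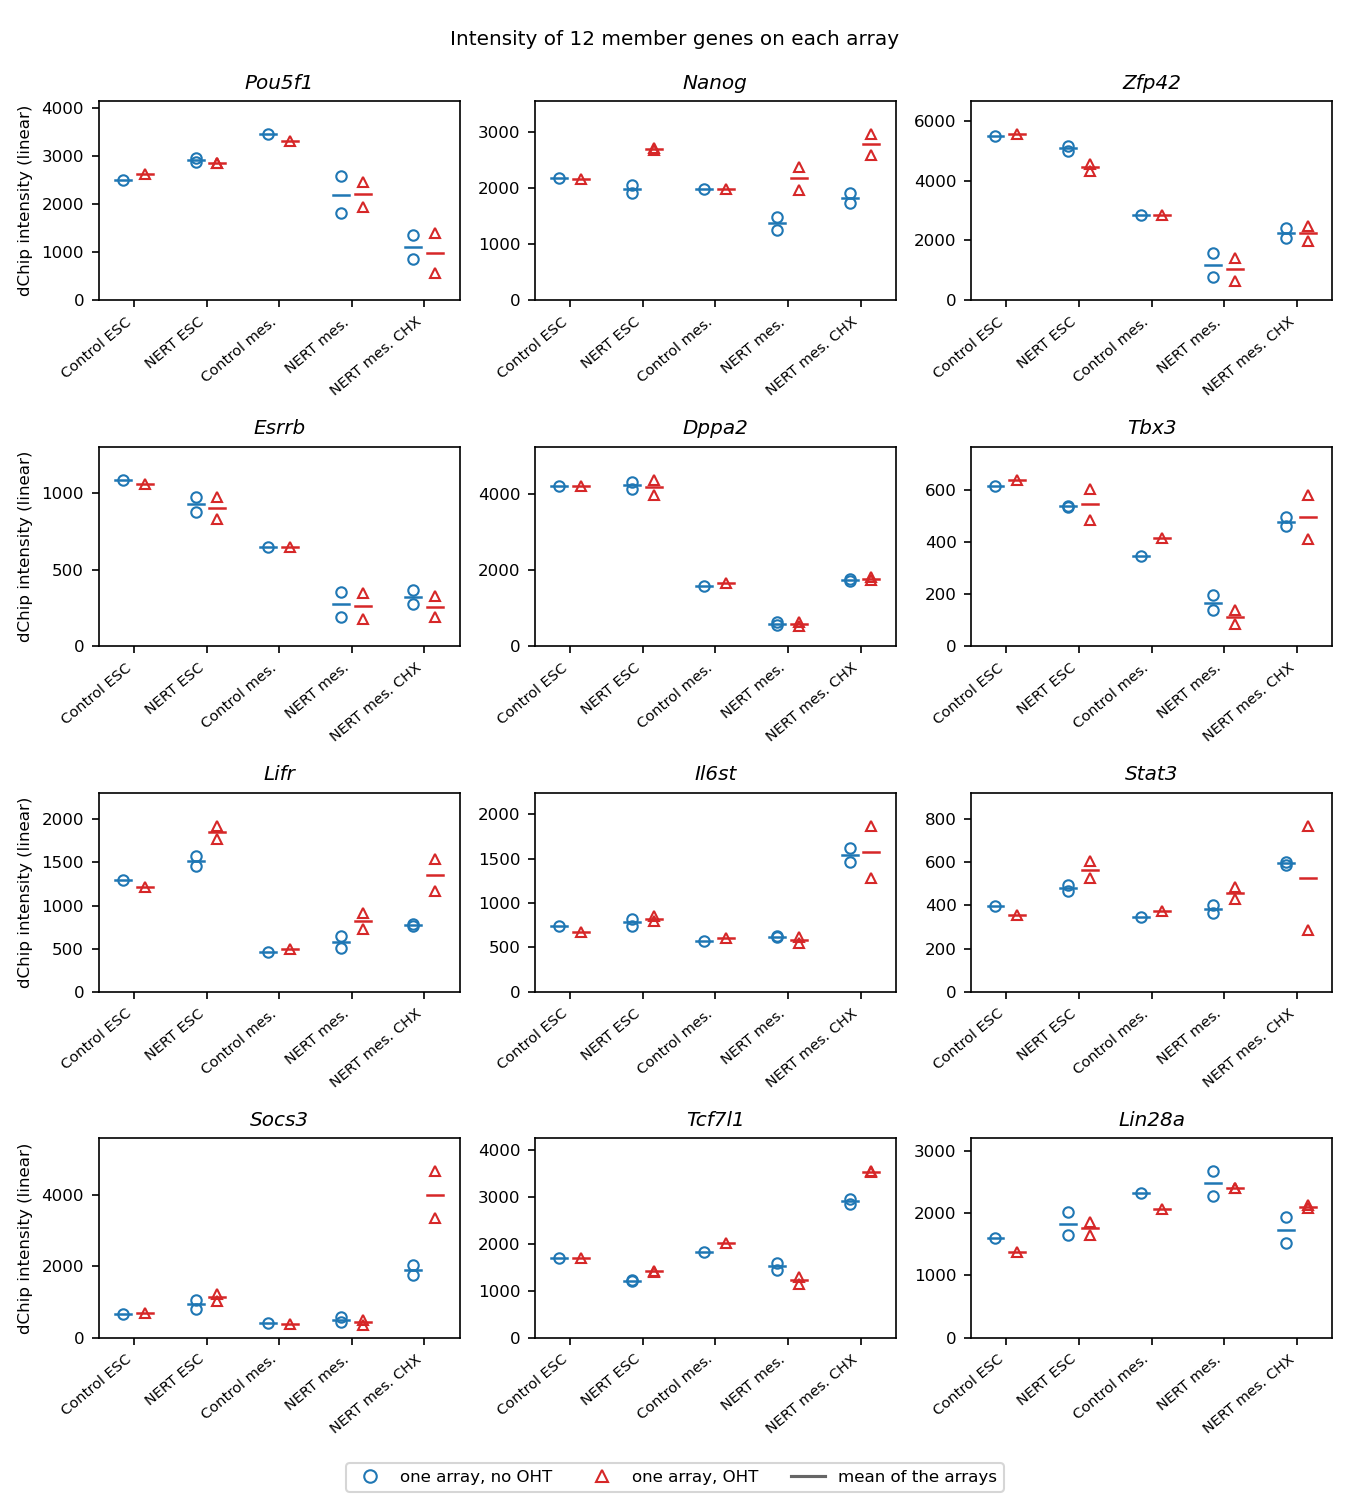
Linear intensity of 12 member genes on each array, with the cell population on the x axis (NERT ESC holds the ESCe and ESCm arrays), circles without OHT, triangles with OHT and horizontal lines for the mean of the arrays of a group. Dppa2 and Zfp42 step down from ESC to control mesoderm to NERT mesoderm, Pou5f1 is lowest on the 4 CHX arrays at 571 to 1398, and Socs3 is highest there at 1766 to 4661.

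The study's main question was what active Notch1 did within 4 h. By limma without a term for the replicate number, no member was called after OHT in any of the settings. With that term Eras was called in NERT mesoderm (limma adjusted p = 0.0396). The counts that follow are without it. In NERT ESC 0 of 36 were called, where 0.538% of all probe sets were, and in control cells 0 were called, where 0% were. In NERT mesoderm 0 were called beside 0.893%, in NERT mesoderm with CHX 0 beside 0.617%, and in the test of a different OHT response with CHX 0 beside 0.0250%. The numbers with an unadjusted p under 0.05 in that order were 1, 0, 7, 4 and 4. The percentages above are of adjusted calls and cannot be set beside these numbers. The shares of all probe sets under the unadjusted threshold are not given here, so these numbers are a description.

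Nanog had an unadjusted p under 0.05 in NERT ESC, in NERT mesoderm and in NERT mesoderm with CHX. It measured 1909 without and 2674 with OHT in ESCe, 2058 and 2715 in ESCm, and 2176 and 2151 in control ESC. In NERT mesoderm it went from 1491 and 1247 to 2372 and 1966, and with CHX from 1724 and 1916 to 2957 and 2591. In each NERT population all induced arrays lay above the uninduced ones, and the control arrays lay close together. The responses were 0.44 in ESC (SE 0.13, limma adjusted p = 0.342), 0.65 in mesoderm (SE 0.17, limma adjusted p = 0.133), 0.60 with CHX (SE 0.17, limma adjusted p = 0.286) and -0.01 in control cells (SE 0.13), none of them called over all probe sets.

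Lifr went from 504 and 645 to 722 and 918 in NERT mesoderm, and from 766 and 784 to 1168 and 1544 with CHX. The induced arrays lay above the uninduced ones in both. Its responses of 0.50 (limma adjusted p = 0.537) and 0.77 (SE 0.20, limma adjusted p = 0.236) were not called, nor was 0.28 in NERT ESC. Socs3 went from 2029 and 1766 to 4661 and 3348 with OHT under CHX, a response of 1.05 (SE 0.23, limma adjusted p = 0.108), and had -0.23 without CHX. The difference between these responses was 1.28 (limma adjusted p = 0.624).

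A further 5 members had unadjusted p-values under 0.05 in NERT mesoderm, each with a response below 0. Eras was 461 and 448 without and 265 and 217 with OHT, a response of -0.85 (SE 0.19, limma adjusted p = 0.0868), and Tcea3 was 342 and 340.2 without and 185 and 212 with OHT, a response of -0.71 (SE 0.18, limma adjusted p = 0.119). For both the arrays did not overlap. L1td1 had -0.65, Jarid2 -0.47 and Rif1 -0.37. With all 16 arrays in the fit Nanog, Tcea3 and Eras were called in this comparison, and with CHX Socs3 was called (limma adjusted p = 0.0267). Pou5f1 had responses of -0.03 in ESC (95% interval -0.73 to 0.68), 0.02 in mesoderm (-0.78 to 0.82) and -0.27 with CHX (-1.07 to 0.53).

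**Figure D4:**
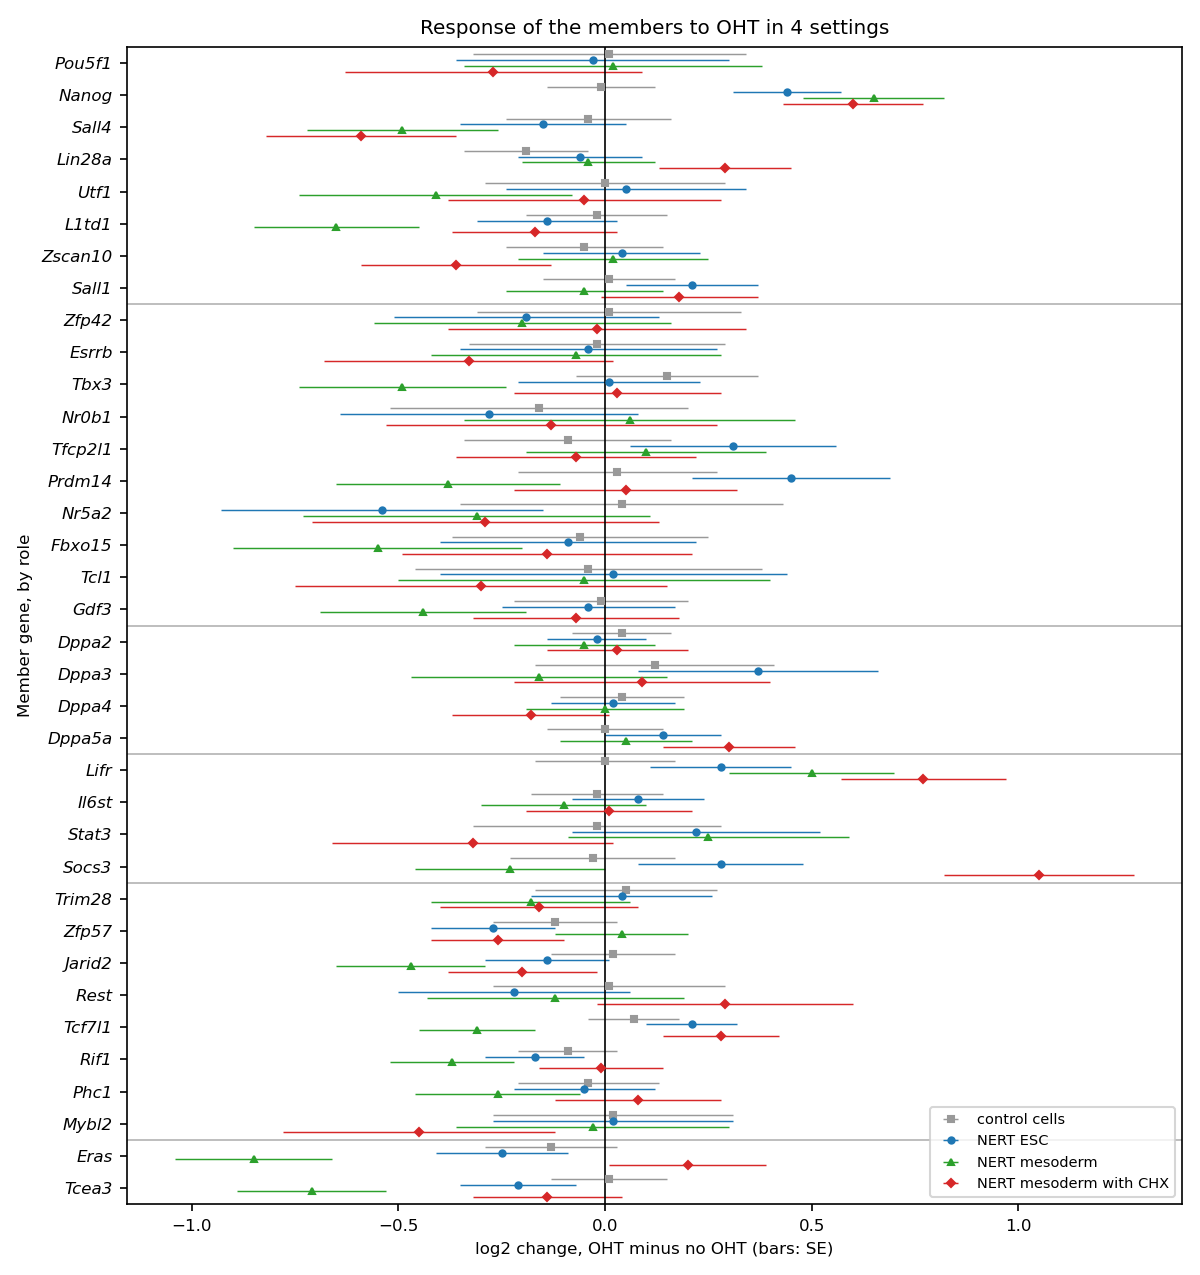
Log2 change with OHT of each member gene on the x axis in control cells (squares), NERT ESC (circles), NERT mesoderm (triangles) and NERT mesoderm with CHX (diamonds), with bars for the standard error. Control cells stay between -0.19 and 0.15, Nanog lies right of 0 in all 3 NERT settings, and Socs3 with CHX is the farthest point at 1.05.

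With protein synthesis blocked for 4 h, the share of members that rose was above that of all probe sets, and the share that fell was not. Without OHT 14 members rose and 4 fell in NERT mesoderm, where 21.1% of all 23971 probe sets tested rose and 11.7% fell. With OHT 17 rose and 3 fell, where 26.5% rose and 14.0% fell. The median change of the members was 0.60 and 0.57, beside 0.06 and 0.10 over all probe sets. These 2 comparisons share no array. Rises shared by both were in 13 genes, which are Tbx3, Dppa2, Gdf3, Fbxo15, Prdm14, Sall4, Sall1, Il6st, Socs3, Tcf7l1, Rif1, Jarid2 and Eras. Tfcp2l1 and Tcea3 fell in both, and how many of all probe sets were called in both was not counted.

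With quantile normalization the counts were 13 rose and 5 fell without OHT, and 14 rose and 5 fell with OHT. The share of higher genes among all calls then moved from 64.3% to 50.4% and from 65.4% to 49.9%, and the median over all probe sets from 0.06 to -0.04 and from 0.10 to -0.04. Streak markers went down with CHX on the same arrays, 6 of 7 without OHT and 5 of 7 with OHT, and this was not separated from the member changes.

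In the LIF pathway, CHX raised the inhibitor and the shared receptor chain. Socs3 was 422 and 585 without CHX and 2029 and 1766 with it, and in OHT-treated cells 355 and 497 without and 4661 and 3348 with CHX. All CHX arrays exceeded every ESC array. Socs3 rose by 1.88 (SE 0.23, limma adjusted p = 0.000258) and by 3.16 (SE 0.23, limma adjusted p = 1.13e-05), the largest rise of a member in both tests, and both its other probe sets were called too. Il6st was 632 and 612 without and 1625 and 1467 with CHX, and in OHT-treated cells 547 and 613 without and 1872 and 1284 with CHX.

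The Il6st groups were separate, at 1.28 (SE 0.20, limma adjusted p = 0.000899) and 1.38 (SE 0.20, limma adjusted p = 0.000369), and the gene's other probe sets had the same direction without a call. Lifr rose in OHT-treated cells, by 0.71 (SE 0.20, limma adjusted p = 0.0185), and was not called without OHT, at 0.43. Stat3 measured 603 and 586 with CHX, and 285 and 769 with CHX and OHT, with changes of 0.60 (limma adjusted p = 0.194) and 0.04. The arrays with CHX and OHT held both the lowest and the highest value of Stat3 on any array. Zscan10, shown above with the same palindrome in its promoter as Socs3, measured 826 and 710.4 with CHX and 486 and 724 with CHX and OHT, beside 446 to 580.4 without CHX, and was not called. Its change without OHT was 0.57, which was called with all 16 arrays in the fit (limma adjusted p = 0.0312). The difference between Zscan10 and Socs3 was not tested.

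Naive-state genes that had gone down in mesoderm were partly higher under CHX. Tbx3 measured 459 and 494 with CHX and 411 and 578 with CHX and OHT, above all 4 NERT mesoderm arrays without CHX and partly within the ESC range. It rose by 1.40 (SE 0.25, limma adjusted p = 0.00188) and 1.92 (SE 0.25, limma adjusted p = 0.000203). Fbxo15 measured 1374, 1557, 1398 and 1257 over the 4 CHX arrays, above NERT mesoderm without CHX and below ESC. It rose by 1.53 (SE 0.35, limma adjusted p = 0.00766) and 1.94 (SE 0.35, limma adjusted p = 0.00159).

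Prdm14 measured 106, 104, 109 and 110.4 with CHX and rose by 0.99 (SE 0.27, limma adjusted p = 0.0179) and 1.42 (SE 0.27, limma adjusted p = 0.00212). Zfp42 measured 2095, 2422, 1977 and 2490, above all NERT mesoderm arrays without CHX, with changes of 1.00 (limma adjusted p = 0.0534), not called, and 1.18 (SE 0.36, limma adjusted p = 0.0226). With a term for the replicate number in the fit, its change without OHT was called (limma adjusted p = 0.00437). Other naive-state genes did not follow. Esrrb was 276, 365, 188 and 326 with CHX and overlapped the arrays without it, at 0.25 and -0.01. Nr0b1 was 91.9, 88.5, 70.9 and 90.8 and Nr5a2 219.5, 169.8, 116 and 202, and neither was called.

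Tfcp2l1 went the other way. It measured 109 and 153 with CHX beside 251 and 384 without, and 91.6 and 160.4 beside 275 and 408 in OHT-treated cells. The CHX arrays lay below all others of this probe set, and the falls were 1.12 (SE 0.29, limma adjusted p = 0.0128) and 1.29 (SE 0.29, limma adjusted p = 0.00487) on the log2 scale.

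Of the Dppa genes, Dppa2 measured 1696, 1770, 1812 and 1730 over the CHX arrays beside 524 to 643 without CHX, and rose by 1.52 (SE 0.17, limma adjusted p = 0.000141) and 1.59 (SE 0.17, limma adjusted p = 6.91e-05). The CHX arrays were just above control mesoderm at 1566 and 1659. Dppa3 measured 122, 131, 156 and 118 and rose in OHT-treated cells, by 1.11 (SE 0.31, limma adjusted p = 0.0167). Dppa4 rose without OHT, by 0.68 (SE 0.19, limma adjusted p = 0.0192), and had 0.50 with OHT (limma adjusted p = 0.0547).

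Pou5f1 was lowest under CHX. It measured 863 and 1357 with CHX and 571 and 1398 with CHX and OHT, below the lowest value of 1814 on any array without CHX. The change was -0.98 without OHT (limma adjusted p = 0.0591), not called, and -1.26 with OHT (SE 0.36, limma adjusted p = 0.0176). With a term for the replicate number in the fit, the change without OHT was called (limma adjusted p = 0.0394). Nanog had 0.41 and 0.35, not called. Replicate 1 was the lower array in both CHX groups, as it was for 18 of the 36 members.

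Among chromatin and repressor genes Tcf7l1 rose most. It measured 2855 and 2954 with CHX and 3538 and 3517 with CHX and OHT, above every other array, with rises of 0.93 (SE 0.14, limma adjusted p = 0.000896) and 1.52 (SE 0.14, limma adjusted p = 3.82e-05). Its other probe set was called in OHT-treated cells. Rest measured 363, 236, 351 and 377 with CHX, below all arrays without it, and fell by 1.15 without OHT (SE 0.31, limma adjusted p = 0.0181), while -0.74 with OHT was not called (limma adjusted p = 0.0832). A second probe set of Rest gave 0.54 without OHT. Mybl2 measured 671, 795, 361 and 769 with CHX and was not called. Jarid2 rose by 0.60 and 0.87, and Rif1 by 0.67 and 1.03, although the second probe set of Rif1 gave -0.02 without OHT.

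Eras measured 843, 611, 842 and 819.6 with CHX beside 461, 448, 265 and 217 without, and rose by 0.63 (SE 0.19, limma adjusted p = 0.0297) and 1.69 (SE 0.19, limma adjusted p = 0.000112). Tcea3 measured 99.1, 130.3, 105 and 97.2, the lowest of all populations, and fell by 1.40 (SE 0.18, limma adjusted p = 0.000289) and 0.82 (SE 0.18, limma adjusted p = 0.00409). Lin28a fell without OHT, by 0.52 (SE 0.16, limma adjusted p = 0.0315), where its second probe set gave 0.10.

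**Figure D5:**
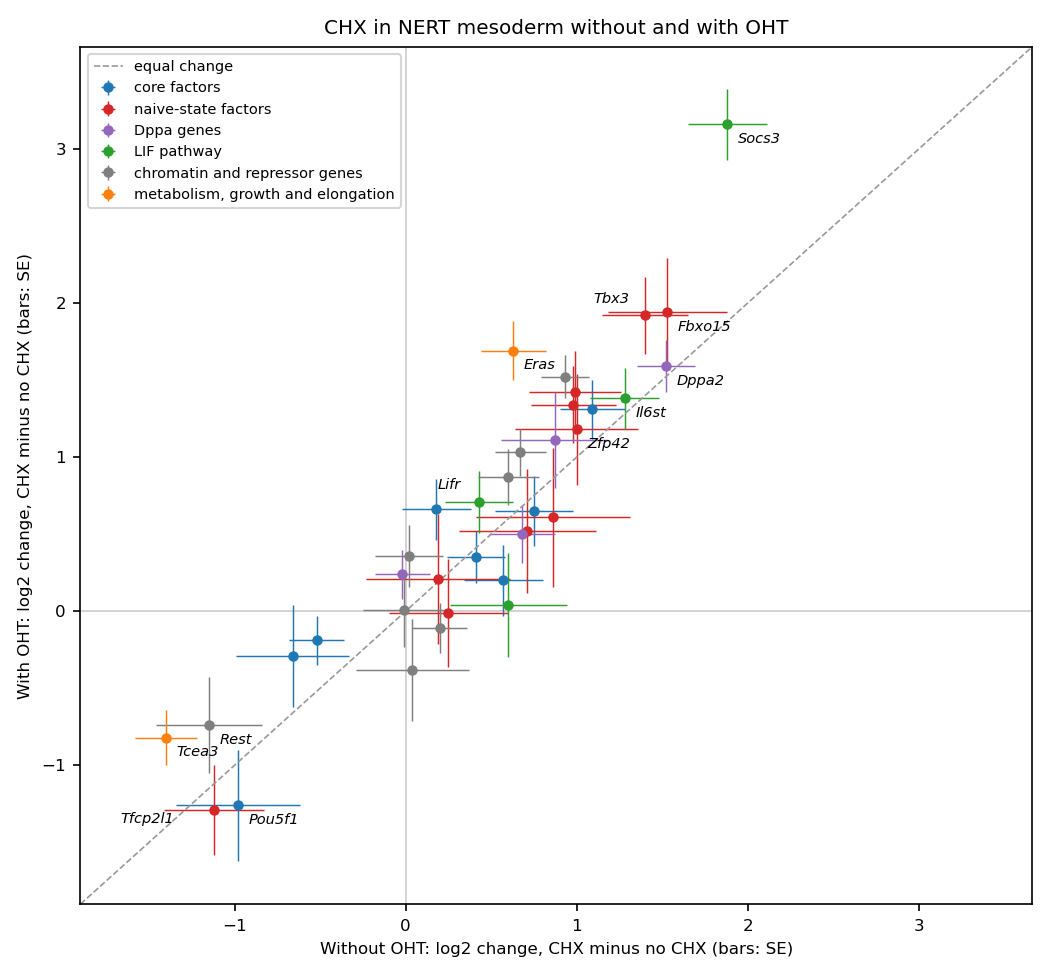
Each point is a member gene, with its log2 change with CHX in NERT mesoderm without OHT on the x axis and with OHT on the y axis, bars giving the standard error and color the role. Socs3 is farthest out at 1.88 and 3.16, Tfcp2l1, Tcea3, Rest and Pou5f1 lie in the lower left, and the dashed line marks equal change.

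Leaving out each array in turn kept 7 of the 18 calls without OHT (Tbx3, Dppa2, Sall1, Il6st, Socs3, Tcf7l1 and Tcea3) and 14 of the 20 with OHT, where Pou5f1, Zfp42, Dppa3, Sall4, Lifr and L1td1 were lost. Without OHT the count went to 10 without replicate 1 of the mesoderm arrays and to 11 without replicate 1 of the CHX arrays.

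Pathway genes outside the member list gave the setting. Of 25 further pluripotency genes 23 were tested in the population comparisons. In the control line 3 rose and 7 fell, where 12.8% of all probe sets rose and 8.16% fell, led by Lefty1 (1.50), Pecam1 (-0.96), Sox15 (-0.83) and Tet2 (-0.66). In the NERT line 3 rose and 10 fell, beside 23.9% and 13.4% of all probe sets, led by the DNA methylation cofactor Dnmt3l (-2.80), Foxd3 (-2.70), Fgf4 (-2.34) and Klf4 (-1.91). Dnmt3l measured 3158 to 3569 in ESC, 2129 and 2027 in control mesoderm and 434 and 510.2 in uninduced NERT mesoderm, and its difference between the lines was called, at -2.19 (SE 0.26, limma adjusted p = 0.00172), as was that of Foxd3, at -2.11 (SE 0.24, limma adjusted p = 0.00137).

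After OHT Cdh1, the epithelial cadherin, rose in NERT ESC by 0.57 (SE 0.10, limma adjusted p = 0.0214), and Tet1 fell in NERT mesoderm by 0.92 (SE 0.17, limma adjusted p = 0.0298), from 814 and 703 to 379 and 398. With CHX 5 of 21 rose and 3 fell without OHT, close to the 21.1% and 11.7% of all probe sets, led by Zfp281 (1.33), Klf4 (1.25), Zfx (1.21) and Kdm4c (0.86). With OHT 8 rose and 3 fell, beside 26.5% and 14.0%, led by Lefty1 (1.67), Klf5 (-1.54), Klf4 (1.42) and Kdm4c (1.34). Sox2, the partner of Pou5f1, fell by 0.48 and 0.85 from ESC to mesoderm in the control and NERT line and rose by 0.58 and 1.27 with CHX, although Pou5f1 was lower under CHX.

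Of 20 further genes of LIF and Janus kinase signaling 19 were tested. In the control line 2 rose and 3 fell, beside 12.8% and 8.16% of all probe sets, led by Bcl3 (-1.40), Gab1 (-0.89), Pias1 (0.72) and Junb (0.70). In the NERT line 7 rose and 5 fell, beside 23.9% and 13.4%, led by Bcl3 (-1.82), Jak2 (1.44), Pias1 (1.02) and Gab1 (-0.99). The kinase Jak2 measured 72.1 to 123 in ESC, 139 and 102 in control mesoderm, and 419 and 325 in uninduced NERT mesoderm, and the lines differed in mesoderm by 1.40 (SE 0.18, limma adjusted p = 0.00113).

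Osmr, the oncostatin M receptor chain that pairs with Il6st, was the gene of this list called with OHT, in NERT ESC and in NERT mesoderm with CHX. Its probe set passed the filter on low values only through the OHT-treated groups, so its values are given as a description. It went from 23.4 to 66.5 in ESCe, from 17.7 to 69.8 in ESCm, from 18.6 and 25.6 to 48.2 and 69 in mesoderm, and from 41.9 and 34.4 to 97.9 and 113 with CHX, and was 12.6 to 18.1 in control cells. The induced arrays lay above the uninduced ones in each NERT population. With CHX 7 of 19 rose and 1 fell without OHT, beside 21.1% and 11.7% of all probe sets, led by Junb (1.84), Stat5b (-1.50), Pim3 (1.35) and Gab1 (1.25). With OHT 9 rose and 1 fell, beside 26.5% and 14.0%, led by Pim3 (2.08), Junb (1.45), Stat5b (-1.16) and Lif (1.08). Lif itself measured 39.2 to 65.4 in ESC, 40.2 to 76 in mesoderm without CHX, and 145 to 176 on the 4 CHX arrays.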

How the data were processed

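RNA of 16 samples was hybridized to Affymetrix Mouse Genome 430 2.0 arrays. The deposited values are intensities that the authors computed with dChip, by its model-based summary after invariant-set normalization to the Control Mesoderm +OHT array. They are linear, background treatment beyond that is not given in the sources used here, and depth has no meaning for arrays, so their number limits the precision. The members and lists were chosen with earlier results of these data known.

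From the deposited intensity values, log2(value + 25) was fitted with limma 3.58.1 in R 4.3.3 (lmFit and eBayes with a trend), for probe sets with a group mean of at least 50, and p-values were adjusted over all probe sets (Benjamini-Hochberg, threshold 0.05). CHX comparisons and OHT in NERT mesoderm used the 8 NERT mesoderm arrays (23971 probe sets). All others used all 16 arrays (25847 probe sets), with a shared OHT effect over the ESC media and over the control populations, since those groups are single arrays. A log2 change is on this scale. Genes were named from the platform annotation, in which 34945 of 45037 probe sets name 1 symbol, 932 several and 9160 none, and probe sets naming several were not used for genes. Array values (over the 6 ESC arrays the lowest, the median and the highest) are given for Pou5f1, Nanog, Zfp42, Esrrb, Tbx3, Prdm14, Stat3, Socs3, Lifr, Il6st and Tcf7l1, and for the 8 members with the largest called change in each comparison, and up to 4 called genes are named from each further list. Genes given with values outside this rule, among them Lin28a, Tcl1, Zscan10 and Sox2, were chosen after their values were seen. Alternatives were quantile normalization, another pseudocount, no filter, separate conditions, all arrays, a replicate block, the second probe set, the study's fold criteria and leaving out arrays. The fits were tested on simulated data. Promoters were those of RefSeq, 250 bases before each start, and 35 of them belong to 25 members.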

Additional observations from a re-analysis of the deposited data

Results flagged for a closer look

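The change of Dppa2 from ESC to mesoderm differed between the lines in a test of the difference itself, at -1.42 (SE 0.18, limma adjusted p = 0.00201), with changes of -1.37 in the control line and -2.79 in the NERT line. It was the only member called in that test, and it was called again with each array in turn left out, with a highest limma adjusted p of 0.0496. Dppa2 measured 1566 and 1659 in control mesoderm and 539.7, 643, 524 and 619 in NERT mesoderm without CHX, and the lines cannot be told apart from the cultures they were grown in. Groups held at most 2 arrays, so that no array could be tested as an outlier within its group.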

How the results depend on the processing

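Of the single-gene values that were recomputed under the alternatives, 1366 kept their direction and call, 234 kept their direction and lost the call, and 4 turned their direction, all with the second highest probe set: Tcf7l1 from ESC to mesoderm in the NERT line (-0.12), and Lin28a (0.10), Rif1 (-0.02) and Rest (0.54) with CHX without OHT. The cause was not tested. Counts of members called moved as follows. From ESC to mesoderm the control line gave 11 with the 12 conditions as groups and 9 by the study's fold criteria, and the NERT line 18 by the fold criteria. The difference between lines gave 2 with quantile normalization (Nr0b1 added). NERT against control mesoderm gave 11 with quantile normalization, 1 with the 12 conditions as groups and 11 by the fold criteria. NERT against control ESC gave 1 by the fold criteria (Dppa3). OHT in NERT mesoderm gave 3 with all 16 arrays in the fit, and with CHX it gave 1 with all 16 arrays and 1 by the fold criteria, Socs3 each time. CHX without OHT gave 10 with the second highest probe set.

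Leaving out an array gave 4 to 18 members in the control line, 19 to 33 in the NERT line, 1 to 2 for the difference between lines, 0 to 13 for NERT against control mesoderm, 0 to 1 for NERT against control ESC, 0 to 4 for OHT with CHX, 10 to 22 for CHX without OHT and 15 to 21 for CHX with OHT, and 0 throughout for the others. The 4 with CHX came without replicate 2 of the CHX and OHT arrays (Sall4, Trim28, Stat3 and Socs3). A lone array of a group is then assumed to vary like the other groups.

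Deviations of equally numbered NERT mesoderm arrays from their group means correlated between 0.01 and 0.51, not all over 0.1, so the numbers were not taken as pairs. Between the groups compared, the correlation was 0.51 for OHT without CHX and 0.07 for OHT with CHX. It was 0.21 and 0.11 for CHX without and with OHT. A single rule was used for all comparisons, although some of these pairs varied together. With a replicate block OHT in NERT mesoderm gave 1 member (Eras, limma adjusted p = 0.0396), and no other count moved by over 1.5 times. CHX without OHT gave 23 and CHX with OHT 22. The block added Zfp42 (limma adjusted p = 0.00437), Pou5f1 (0.0394), Dppa3 (0.0248), Utf1 (0.0423) and Tcl1 (0.0448) without OHT, and Rest (0.0189) and Dppa4 (0.0147) with OHT. Dim probe sets such as Nr0b1, Prdm14 and Osmr limit the folds, since their lowest values lie near the added 25.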

Other observations

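Marker lists of other cell states moved beside the pluripotency genes, and their part in the member changes was not tested. Summed intensities of the 5 ESC markers were 10024 to 11435 in ESC, 4909 to 8757 in mesoderm without CHX and 7346 to 9112 with CHX. The 8 primed epiblast markers summed to 7931 to 10073, 8164 to 10341 and 10678 to 13723 in the same order, and Fgf5 and Zic2 were under 50 on all ESC arrays. This sum hides opposite movements. Of 7 tested from ESC to mesoderm, 3 rose and 1 fell in the control line, beside 12.8% and 8.16% of all probe sets. In the NERT line 3 rose and 2 fell, beside 23.9% and 13.4%. Mean Fgf5 was 32.3 in ESC and 664 in mesoderm without CHX, and mean Nodal 1081 and 2710. Mean Pou3f1 was 687 and 1394, and mean Dnmt3a 2066 and 561. The 3 germ cell markers with a probe set were 944 to 1196 in ESC and 464 to 644 in mesoderm without CHX. The 4 neuroectoderm markers reached 786 in ESC, 929.7 in mesoderm without CHX and 1405 with CHX, and Pax6 and Sox1 were under 50 on all mesoderm arrays without CHX. The 4 fibroblast markers were 453 to 866 in ESC and 357 to 502 in mesoderm without CHX, with 863 to 1230 under CHX. The endoderm markers were 424 to 608 under CHX, with Gata4 and Afp under 50. The 3 trophectoderm markers were 150.2 to 457 in mesoderm without CHX, with Elf5 under 50.

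On replicate 1 of the arrays with CHX and OHT several members lay far below replicate 2. Stat3 was 285 beside 769, Sall4 1635 beside 2970, Trim28 3938 beside 7898, Mybl2 361 beside 769 and Pou5f1 571 beside 1398, while Socs3 was 4661 beside 3348 and Il6st 1872 beside 1284.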
